A study of Mus musculus with 2 samples.

Results

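The 9 genes described here encode enzymes that turn farnesyl diphosphate into cholesterol by way of squalene: Fdft1, Sqle, Lss, Cyp51, Msmo1, Nsdhl, Ebp, Sc5d and Dhcr7. They were chosen by gene symbol, and all 9 were found once among the 32285 genes of the files. White blood cells that were alive and carried CD45, a surface protein of blood cells, were sorted from tumours that B16-F10, a melanoma line of the mouse, had formed under the skin by 14 days after injection. The tumour cells were either FDPS-knockout or, in the control group, labelled WT for genotype. Both groups share the B16-F10 line, and the labels give neither the age nor the strain of the host mice, nor whether the knockout line is a clone. Each group pooled 3 tumours into 1 droplet library, and no label ties cells to tumours. There is therefore no replicate and no test between groups. Every ratio below compares 2 libraries, and its 95% interval covers counting error only.

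Cells make cholesterol from acetyl-CoA through the mevalonate pathway. FDPS, farnesyl diphosphate synthase, makes the last compound before the pathway splits towards sterols and towards lipid anchors of proteins. The sterol branch starts when FDFT1 joins farnesyl diphosphate into squalene. When sterols in the membrane of the endoplasmic reticulum are low, the transcription factor SREBP2 turns on genes of the pathway, and when oxysterols or other sterol ligands are high, the receptor LXR turns on genes of cholesterol export. The knockout was made in the tumour cells, and the sorted immune cells come from the host.

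The knockout library held 9130 barcodes with 127186298 unique molecular identifiers (UMIs, counts of distinct RNA molecules) and the control library 10882 barcodes with 208936136 UMIs. After filters, 8062 and 8595 cells remained. The libraries shared 30 barcodes, of which 15 were retained in both. Cells were given a type from marker genes, and 13.1% and 14.8% of cells stayed without one. The 9 genes together gave 26398 UMIs with the knockout against 56178 for the control. Melanoma cells that passed the sort numbered 15 and 342, and in these melanoma cells Fdps itself stood at 90.4 CPM (UMIs scaled to a common total per cell type and library) against 405 CPM, knockout library first. UMIs from outside an edited site cannot show the edit, so that level does not check the label by itself. Summed CPM of 5 melanoma markers in the 11 cell types compared below was 6 to 22 in the knockout library apart from mature dendritic cells at 448, and 72 to 204 in the control library.

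Promoter sequence was looked at because some of the 9 genes differed alike between the libraries and others did not. RefSeq promoters on GRCm38.p6 were found for 7 of the 9 genes, with 3 for Dhcr7, so 9 promoters in all, each searched over 250 bases before a RefSeq transcript start. Shown are those of Ebp, which was lower in the knockout library in T cells and macrophages, Sc5d, which was higher there in macrophages, and Nsdhl. With cell types from markers, the Nsdhl ratio had an interval clear of 1 in 1 of 11 types. All 3 lie outside the gene as GENCODE vM21 draws it, while those of Lss, Cyp51, Msmo1 and Dhcr7 overlap or lie within theirs. Each is printed 5′ to 3′ on the strand of the gene, and capitals mark CCAAT, the core of the NF-Y motif, or its reverse complement ATTGG.
Ebp, chrX:8193513-8193762, minus strand: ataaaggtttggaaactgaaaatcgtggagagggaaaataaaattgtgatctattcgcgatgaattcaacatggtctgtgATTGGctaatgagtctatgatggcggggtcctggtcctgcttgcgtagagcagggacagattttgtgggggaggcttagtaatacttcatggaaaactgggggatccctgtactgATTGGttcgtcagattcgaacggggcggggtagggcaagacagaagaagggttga
Nsdhl, chrX:72918271-72918520, plus strand: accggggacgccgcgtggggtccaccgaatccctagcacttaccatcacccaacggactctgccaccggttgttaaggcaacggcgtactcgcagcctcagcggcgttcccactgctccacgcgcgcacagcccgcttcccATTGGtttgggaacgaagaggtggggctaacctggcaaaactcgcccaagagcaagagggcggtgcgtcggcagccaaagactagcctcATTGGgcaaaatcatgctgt
Sc5d, chr9:42264301-42264550, minus strand: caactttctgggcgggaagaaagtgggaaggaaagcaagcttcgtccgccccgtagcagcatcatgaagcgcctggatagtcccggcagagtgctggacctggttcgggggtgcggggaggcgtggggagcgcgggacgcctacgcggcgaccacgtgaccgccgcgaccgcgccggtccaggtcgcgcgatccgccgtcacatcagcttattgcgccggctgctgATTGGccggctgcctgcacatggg
CCAAT on either strand was in 7 of the 9 promoters, against 33.8% of 32851 promoters of the same length. The matched genes each had it in at least 1 promoter: Ebp and Nsdhl at 2 places, Sc5d at 1. The sterol element written TCACNCCAC was in 0 of the 9 and in 1.05% of all, and CACGTG was in 2 of the 9 and in 6.02% of all. In Sc5d, the one promoter with both CACGTG and CCAAT, they lay 98 and 24 bases upstream and did not overlap. A match is a description of letters, and the 3 printed genes share CCAAT although their levels differed in different ways.

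Plasmacytoid dendritic cells, which specialise in making type I interferon, had the highest summed level of the 9 genes in both libraries. It was 731 CPM (interval 699 to 765; 146 cells) against 935 CPM (836 to 1042), knockout library first, and the control library had only 24 such cells. Msmo1, a methyl sterol monooxygenase, reached 214 and 246 CPM in these cells, and Cyp51, which removes a methyl group from lanosterol, 115 and 140 CPM. In no other immune type did either gene pass 100 CPM in either library. Type 1 dendritic cells (252 CPM in the knockout and 351 CPM in the control library) and type 2 dendritic cells (217 and 394 CPM) came next among immune cells of the control library. Their order in the control library was not resolved by the counting intervals. Neutrophils were lowest in both libraries, at 97.6 and 120 CPM, and these intervals met those of B cells in both libraries. Melanoma cells stood at 382 CPM (15 cells) and 558 CPM (342 cells).

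**Figure D1:**
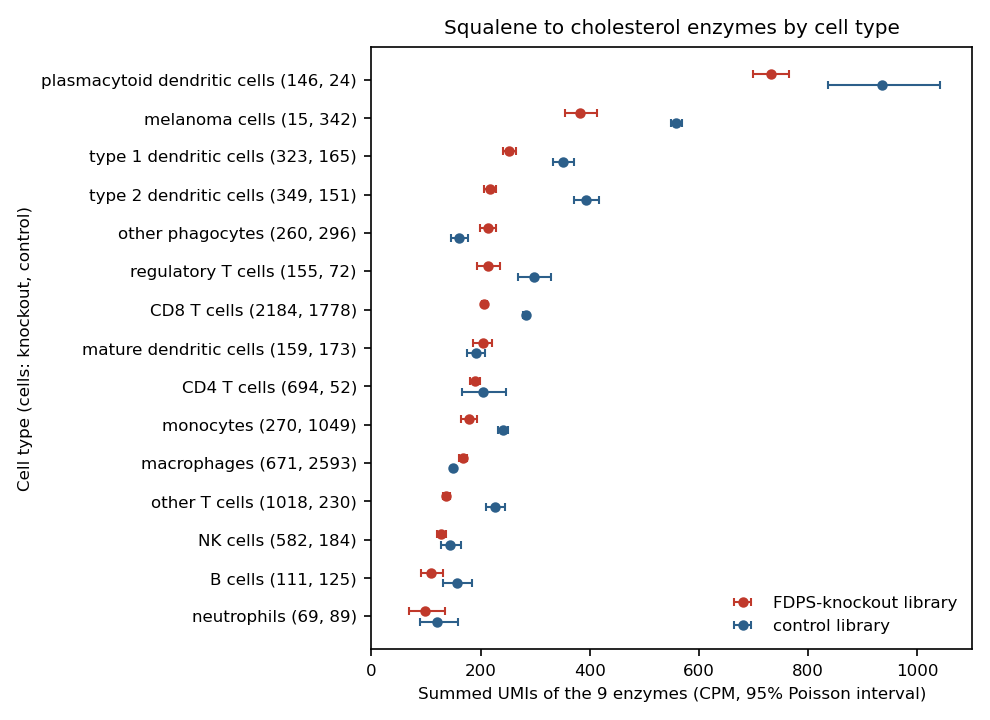
Summed UMIs of the 9 enzyme genes, in CPM with 95% Poisson intervals, in 15 cell types of the FDPS-knockout and the control library; cell numbers of the knockout and control library stand in brackets. Plasmacytoid dendritic cells are highest at 731 and 935 CPM, and macrophages and other phagocytes are among the types in which the knockout library is not below the control library.

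CD8 T cells, regulatory T cells, B cells and type 1 and type 2 dendritic cells had less RNA of the branch in the knockout library, taken over all cells of a type. In CD8 T cells, the killer T cells, the 9 genes summed to 206 CPM (7549 UMIs) in the knockout and 282 CPM (13345 UMIs) in the control library, a ratio of 0.73 (0.71 to 0.75), although in each of the 4 CD8 clusters shared by both libraries the interval held 1. The ratio was 0.71 (0.62 to 0.82) in regulatory T cells, 0.60 (0.55 to 0.66) in other T cells and 0.70 (0.55 to 0.90) in B cells. The other T cells depend on how they are chosen: taken from clusters (1016 and 120 cells), they gave 0.85 (0.69 to 1.04), with Cyp51 at 0.90 (0.47 to 1.95). Type 1 dendritic cells gave 0.72 (0.67 to 0.77) and type 2 dendritic cells 0.55 (0.51 to 0.60). NK cells, at 128 and 145 CPM, had an interval that held 1 (0.77 to 1.03), but it lay below 1 when NK cells were taken from clusters (0.86, 0.75 to 0.98). CD4 T cells stood at 190 CPM (181 to 198) and 204 CPM (167 to 246), and the control library had only 52 of them. Regulatory T cells rest on 155 and 72 cells, below the 100 cells per library asked of the other types. The median of all tested genes was itself above 0 on the log2 scale (0.15 in CD8 T cells, 0.11 in conventional dendritic cells). Relative to that median the log2 ratio in CD8 T cells was -0.60 instead of -0.45. Free RNA was estimated at 1.25% to 4.95% of UMIs in the 11 cell types, and with it subtracted the CD8 T value stayed at -0.45.

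Phagocytes did not share one direction. Monocytes were lower in the knockout library, at 179 against 240 CPM (0.74, 0.68 to 0.81), and those taken from clusters gave 0.50 (0.44 to 0.57). Macrophages stood at 168 against 150 CPM (1.12, 1.06 to 1.18), or 1.31 (1.25 to 1.36) when taken from clusters, and phagocytes with neither a clear monocyte nor a clear macrophage set of markers at 213 against 161 CPM (1.32, 1.18 to 1.49). The macrophages compared are unlike cells: their summed macrophage markers were at 7230 CPM in the knockout and 12863 CPM in the control library, and the part of this in the ratios was not tested. Monocytes and macrophages lay largely in clusters of 1 library. The exceptions, with at least 50 such cells in each library, were cluster 12, led by Adgre4 and Ace, at 1.17 with an interval that held 1, and cluster 14, led by Cd209a, at 0.67 (0.58 to 0.78). Cluster 14 held 69 and 78 cells gated as phagocytes, beside 347 and 180 gated as conventional dendritic cells. The part of dendritic cells in its 0.67 was not tested. Mature dendritic cells, at 203 and 191 CPM, had an interval that held 1 (0.94 to 1.20), but it lay above 1 when taken from clusters (1.16, 1.01 to 1.34). In sums of this kind fewer expressing cells and less RNA per cell cannot be told apart. After thinning each cell to 5000 UMIs, 53.3% of CD8 T cells with the knockout and 70.2% of those of the control had a UMI of any of the 9 genes, against 45.1% and 44.3% of macrophages. The pathway is used by most cells, so no cell type known to lack it could give a background share.

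The first steps of the branch are squalene synthase, squalene epoxidase and lanosterol synthase. Fdft1, the squalene synthase, was read at 24.2 CPM in knockout-library CD8 T cells and 33.2 CPM of the control library (ratio 0.73, 0.67 to 0.79). In type 2 dendritic cells it was 22.5 and 48.6 CPM (0.46, 0.37 to 0.59), its lowest ratio among 11 cell types. Macrophages showed the opposite order, 14.5 and 10.5 CPM (1.38, 1.15 to 1.65). Among monocytes and macrophages together, Fdft1 was at 0.95 (0.81 to 1.12) in non-dividing and 1.92 (1.45 to 2.51) in dividing cells. Sqle (chr15:59315077-59331192, plus strand, GRCm38), squalene epoxidase, a rate-limiting enzyme of the branch, stood at 16.02 and 27.1 CPM in CD8 T cells (0.59, 0.54 to 0.65). In other T cells it was 5.25 and 19.8 CPM (0.27, 0.18 to 0.39; 57 UMIs in each library), and in type 2 dendritic cells 19.5 and 46.1 CPM (0.42, 0.33 to 0.55). Sqle was at 11.2 and 11.3 CPM in macrophages, the gated cell type in which the libraries were closest. Across the 11 cell types as gated, the Sqle ratio was below 1 in 9, with an interval below 1 in 6 and above 1 in 0. Macrophages taken from clusters gave 14.1 and 11.4 CPM, with an interval above 1 (1.23, 1.05 to 1.45). Lss, lanosterol synthase, was read at few UMIs: 7.60 and 8.17 CPM in CD8 T cells (0.93, 0.79 to 1.09), and its average over both libraries passed 10 CPM in none of the 11 cell types.

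The next steps strip methyl groups from lanosterol. Cyp51 (chr5:4081145-4104746, minus strand, GRCm38), the lanosterol demethylase, stood at 38.4 CPM in knockout-library CD8 T cells and 51.4 CPM of the control library (0.75, 0.70 to 0.80). In type 2 dendritic cells it was 48.7 and 91.7 CPM (0.53, 0.45 to 0.63), in other T cells 17.5 and 43.1 CPM (0.41, 0.32 to 0.51), and in B cells 16.6 and 33.0 CPM (0.50, 0.27 to 0.92). Monocytes were also lower with the knockout, at 32.6 and 51.8 CPM. Macrophages and other phagocytes ran the other way: 26.2 and 16.5 CPM in macrophages (1.58, 1.38 to 1.81) and 48.8 and 19.97 CPM in other phagocytes (2.44, 1.80 to 3.35). Macrophages taken from clusters gave 2.45 (2.20 to 2.73). Among monocytes and macrophages together, Cyp51 was at 1.05 (0.93 to 1.19) in non-dividing and 2.45 (2.00 to 2.98) in dividing cells, which made up 9.41% of the knockout and 24.7% of the control library's. Other phagocytes differ between libraries in the markers they carry, with summed macrophage markers at 941 and 1855 CPM, and the part of that in the Cyp51 ratio was not tested. Msmo1 stood at 16.5 and 29.2 CPM in CD8 T cells (0.57, 0.51 to 0.62), 10.2 and 20.7 CPM in NK cells (0.49, 0.32 to 0.77) and 40.4 and 73.0 CPM in type 2 dendritic cells (0.55, 0.46 to 0.67). In NK cells 6 of the 9 genes had at least 10 CPM on average. Of these 6, Msmo1 alone passed 1.5-fold on the log2(CPM + 5) scale. Dhcr7, under that floor, stood at 7.58 and 3.13 CPM in NK cells, on 53 and 5 UMIs. Among monocytes and macrophages together, Msmo1 was at 1.03 (0.92 to 1.16) in non-dividing and 1.76 (1.44 to 2.13) in dividing cells. Nsdhl, a sterol dehydrogenase, had ratios from 0.71 to 1.47 over the 11 cell types as gated. Its interval there was clear of 1 in type 1 dendritic cells only (0.53 to 0.94). This depends on how cells are chosen: with types from clusters, the Nsdhl interval held 1 in type 1 dendritic cells. It was then below 1 in monocytes (0.40, 0.17 to 0.83) and type 2 dendritic cells (0.70, 0.53 to 0.92). In macrophages from clusters it was above 1 (1.28, 1.08 to 1.53).

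The last steps change the double bonds of the sterol. Ebp, the sterol isomerase, was lower in the knockout library in most types, macrophages included. It stood at 53.7 and 82.0 CPM in CD8 T cells (0.65, 0.62 to 0.69), 41.8 and 60.7 CPM in macrophages (0.69, 0.62 to 0.76) and 17.0 and 35.5 CPM in mature dendritic cells (0.48, 0.33 to 0.69). Its interval lay below 1 in 8 of 11 cell types, the most of the 9 genes. Ebp is also the gene of the shortest genomic span (8.2 kb). With tested genes cut into 4 equal sets by span, the median log2 ratio in CD8 T cells was -0.28 in the shortest set, which holds Ebp, and 0.57 in the longest. The part of this in the Ebp ratio was not tested. Sc5d, a sterol desaturase, stood at 18.6 and 7.63 CPM in macrophages (2.44, 2.05 to 2.88), the highest ratio of any of the 9 genes in that cell type, between macrophages that fall mostly in different clusters in each library. In CD8 T cells it was 24.2 and 26.1 CPM (0.93, 0.85 to 1.01), and in B cells 6.98 and 29.7 CPM (0.23, 0.092 to 0.53) on 8 and 27 UMIs. Dhcr7, the last enzyme of one of the routes, had an interval that held 1 in all but 1 of the 11 types as gated. The exception was other phagocytes, at 11.2 and 5.81 CPM (1.92, 1.07 to 3.64). With types from clusters, it was clear of 1 in other phagocytes (1.89, 1.02 to 3.40), NK cells (2.65, 1.15 to 7.51) and type 1 dendritic cells (0.57, 0.35 to 0.93).

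**Figure D2:**
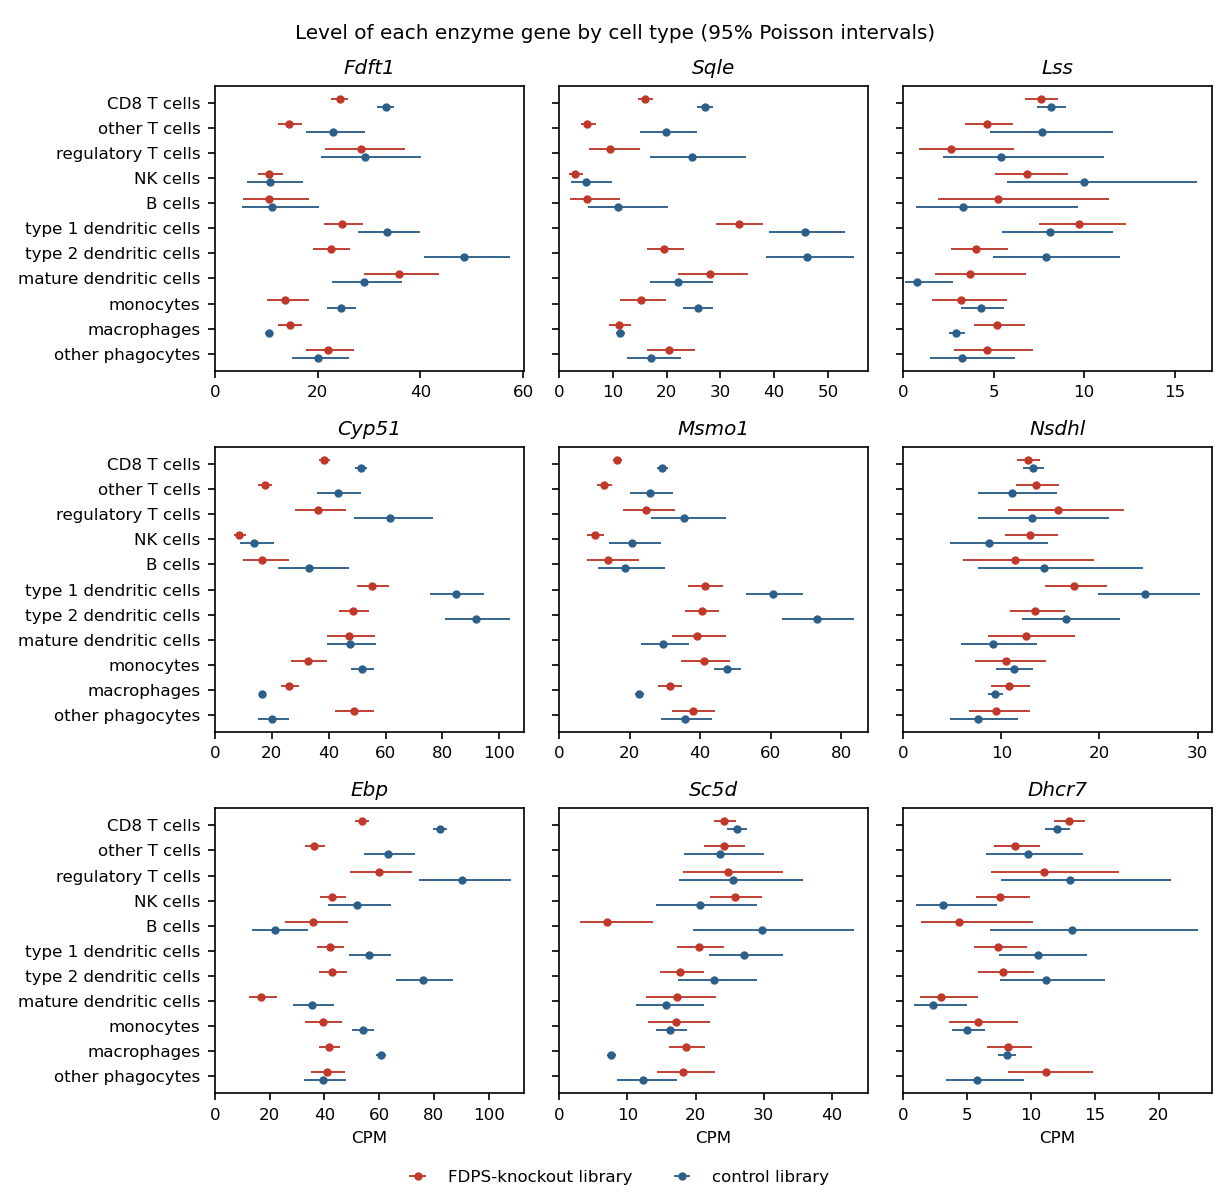
CPM of each of the 9 genes in 11 cell types, with 95% Poisson intervals, for the FDPS-knockout and control library; each panel has its own axis from 0. Sqle, Cyp51, Msmo1 and Ebp are lower in the knockout library in CD8 T cells and type 2 dendritic cells, and Sc5d in macrophages stands at 18.6 against 7.63 CPM. The Nsdhl ratio of these gated types has an interval clear of 1 in type 1 dendritic cells only.

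Genes past 1.5-fold on the log2(CPM + 5) scale, among those with at least 10 CPM on average, were then counted beside all genes tested. In CD8 T cells 2 of 8 tested members (Sqle and Msmo1) were lower, against 7.91% of 8254 genes, and 0 were higher, against 18.9%. In type 2 dendritic cells 5 of 7 were lower (Fdft1, Sqle, Cyp51, Msmo1, Ebp), against 7.82% of 8321 genes, and 0 were higher, against 14.2%. In other T cells the count was 4 of 7 (Sqle, Cyp51, Msmo1, Ebp) against 14.2% of genes, and in regulatory T cells 2 of 8 (Sqle, Cyp51) against 15.6%. No member was higher in these, against 18.6% and 21.2% of genes. Monocytes had 3 of 7 lower (Fdft1, Sqle, Cyp51) against 9.84%, NK cells 1 of 6 (Msmo1) against 5.06%, B cells 2 of 6 (Cyp51, Sc5d) against 11.3%, and mature dendritic cells 1 of 7 (Ebp) against 11.2%. Higher were 1 of 6 in B cells (Ebp, 35.8 and 22.0 CPM, with an interval that held 1) against 16.1% of genes, and 0 in monocytes (17.7%), NK cells (8.87%) and mature dendritic cells (19.3%). Type 1 dendritic cells had 0 of 7 lower, against 5.93%, although all 7 log2 ratios lay below 0, and 0 higher, against 12.0%. All conventional dendritic cells together had 0 of 7 lower, against 5.59%, and 0 higher, against 11.4%. In macrophages 0 of 7 were lower and 1, Sc5d, was higher; 15.8% of genes were called in each direction, so 1 of 7 is near the background. Other phagocytes had 0 of 6 lower, against 17.5%, and 1 higher (Cyp51), against 16.5%. Monocytes and macrophages together had 0 of 7 lower, against 14.8%, and 1 higher (Sc5d), against 15.5%. Members under 10 CPM (1 to 3 by cell type) were not counted.

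**Figure D3:**
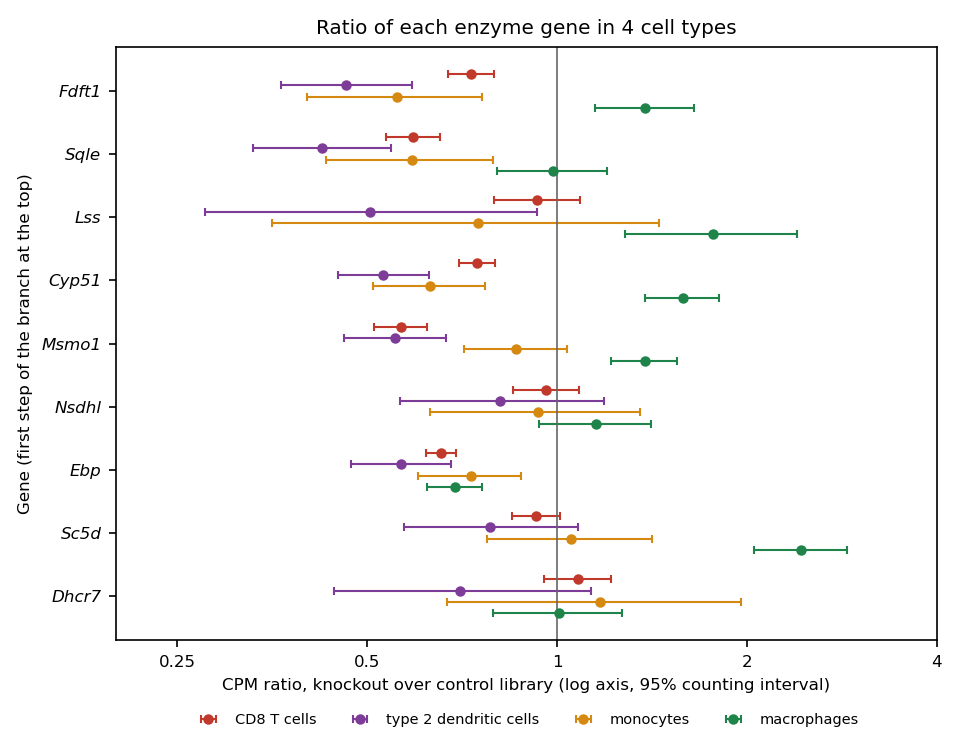
Ratio of CPM, knockout over control library, for each of the 9 genes in 4 cell types, on a log axis with 95% counting intervals; the line marks equal levels. Type 2 dendritic cells lie furthest left for each of the 9 genes (Sqle 0.42, Fdft1 0.46), and macrophages lie right of the line, with intervals clear of it, for Fdft1, Lss, Cyp51, Msmo1 and Sc5d and left of it for Ebp (0.69).

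Dividing cells carried more branch RNA in CD8 T cells, and the libraries held different shares of them. Cells with at least 3 of 10 division genes made up 37.3% of the knockout-library CD8 T cells and 64.8% of those of the control library. The 9 genes summed to 250 CPM in dividing and 134 CPM in non-dividing CD8 T cells of the knockout library (1.86-fold, 1.76 to 1.97), and to 292 and 218 CPM in the control library (1.34-fold, 1.25 to 1.43). Cyp51 was 3.36-fold (2.88 to 3.94) and Sqle 3.55-fold (2.78 to 4.59) higher in dividing than in non-dividing CD8 T cells of the knockout library. Dividing cells held more UMIs (medians 22626 and 10060 in the knockout library), and the part of depth in these folds was not tested. Among non-dividing CD8 T cells alone, the library ratio was 0.62 (0.57 to 0.67), with Sqle at 0.30 (0.22 to 0.40) and Cyp51 at 0.44 (0.36 to 0.55). Among dividing cells it was 0.86 (0.83 to 0.88), with Cyp51 at 0.97 (0.90 to 1.04) and Dhcr7 at 1.29 (1.12 to 1.48). Conventional dendritic cells did not show a higher level in dividing cells of the knockout library (0.97-fold, 0.90 to 1.04), while those of the control library stood at 364 and 285 CPM (1.28-fold, 1.18 to 1.39).

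**Figure D4:**
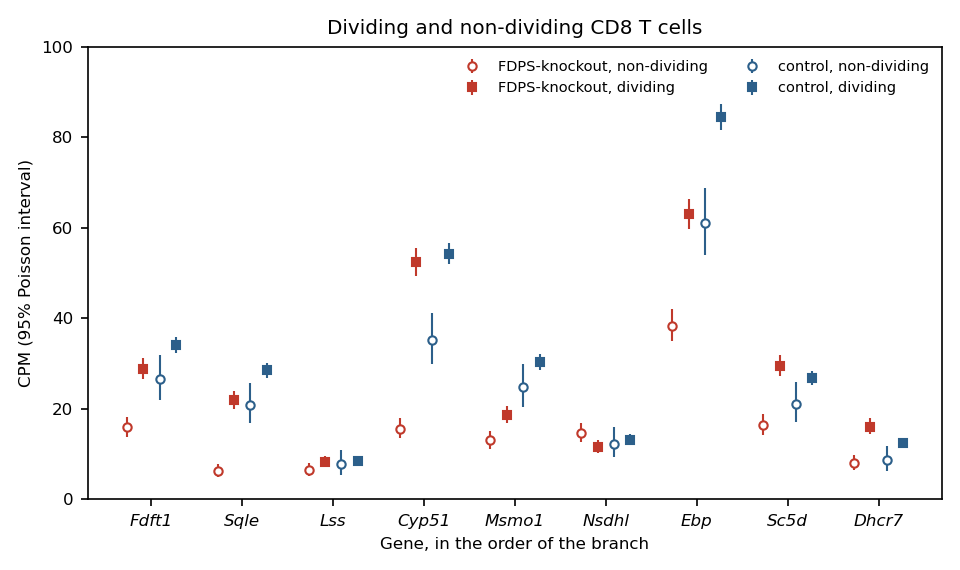
CPM of each of the 9 genes in dividing (squares) and non-dividing (open circles) CD8 T cells of both libraries, with 95% Poisson intervals. Sqle and Cyp51 are lowest in non-dividing cells of the knockout library, at 6.17 and 15.6 CPM, while Lss and Nsdhl differ little among the 4 sets of cells.

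Subsets of a type were not shared evenly by the libraries. Of the Leiden clusters holding CD8 T cells, 4 had at least 50 such cells in each library, and within these 4 the ratio of the summed branch was 0.86, 0.99, 1.04 and 0.96, each with an interval that held 1. Most control CD8 T cells lay in clusters 28, 29 and 33 (313, 423 and 599 cells, against 43, 9 and 18 in the knockout library), led by genes such as Cxcr6, the granzymes Gzmg and Gzmd, and histone genes. The CD8 T ratio of 0.73 is thus a value over unlike subsets. In cluster 14, led by Cd209a, the conventional dendritic cells of both libraries could be set side by side, 347 and 180 cells, at 227 and 382 CPM (0.60, 0.55 to 0.64). Cluster 7, led by genes such as Clec9a and Xcr1 and shared by 211 and 108 conventional dendritic cells, gave 0.88 (0.80 to 0.97), nearer to 1 than the 0.72 of type 1 dendritic cells. Regulatory T cells of cluster 10 gave 0.72 (0.62 to 0.83), and conventional dendritic cells of cluster 20, led by Il12b, Fscn1, Cacnb3 and Ccr7, 1.02 (0.88 to 1.18).

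Other genes of sterol metabolism were read in the same sums. Of 9 upstream mevalonate genes, 7 of 9 tested were lower in type 2 dendritic cells of the knockout library, against 7.82% of all genes (Hmgcs1 57.7 and 124 CPM, Idi1 27.2 and 70.2 CPM). Lower were also 5 of 7 in other T cells as gated, against 14.2%, and 2 of 7 in CD8 T cells, against 7.91%. Fdps was among them in each: it stood at 27.2 and 78.1 CPM in CD8 T cells (0.35) and 52.5 and 203 CPM in type 2 dendritic cells (0.26). The labels name the knockout for the injected line, not for the host. Melanoma cells, whose Fdps level was 405 CPM, were more numerous in the control library, and the part of their free RNA in the Fdps ratios was not tested. Regulatory T cells had 4 of 7 upstream genes lower, against 15.6% of all genes, and B cells 3 of 7, against 11.3%. Type 1 dendritic cells had 2 of 8, against 5.93%, and mature dendritic cells 2 of 7, against 11.2%. Monocytes had 1 of 7, against 9.84%, NK cells 0 of 6, against 5.06%, and other phagocytes 0 of 7, against 17.5%. In macrophages 1 of 7 upstream genes was lower, Fdps (22.4 and 40.8 CPM), against 15.8% of all genes. Of 11 tested genes of sterol sensing and uptake, 3 were higher in macrophages and 1 was lower, against 15.8% of genes in each direction. Among the higher was Insig1 (31.3 and 17.1 CPM), which holds SREBP in the endoplasmic reticulum when sterols are plentiful. Other phagocytes likewise had 3 of these 11 higher, against 16.5%, and 2 lower, against 17.5%. Of 10 genes of sterol efflux, storage and oxysterols or under LXR, 6 were tested in CD8 T cells: 2 were higher in the knockout library, against 18.9% of all genes, 1 was lower, against 7.91%, and 3 were within 1.5-fold. The higher ones were Mylip, a ubiquitin ligase that LXR turns on, at 28.6 and 4.36 CPM (6.57-fold), and Abcg1, a sterol exporter, at 22.2 and 4.57 CPM (4.86-fold). Counts for this list differed by cell type. Mature dendritic cells had 6 of 7 higher, against 19.3%, and 0 lower, against 11.2%. Other T cells as gated had 4 of 7 higher, against 18.6%, and 1 lower, against 14.2%. Other phagocytes had 7 of 9 lower, against 17.5%, and 0 higher, against 16.5%. Macrophages had 2 of 10 lower and 1 higher, against 15.8% in each direction.

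Across 22 sums (11 cell types in 2 libraries), the 5 genes with patterns most like the summed 9, out of 9006, included Fdps (Pearson r = 0.87), S100a11 (0.84) and Rnf113a2 (0.84). Within the 9, Cyp51 (0.86), Sqle (0.86) and Fdft1 (0.84) followed the sum of the other 8 most closely, and Ebp (0.32) and Lss (0.27) least. Mylip ran opposite, at -0.85, and the 10 division genes reached 0.46. Mylip was the extreme of its list of efflux, storage and oxysterol genes. The others of that list with at least 10 CPM on average ran from -0.64 to 0.34, with Abcg1 at -0.39. These sums share libraries and cell types, so each r is a description.

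**Figure D5:**
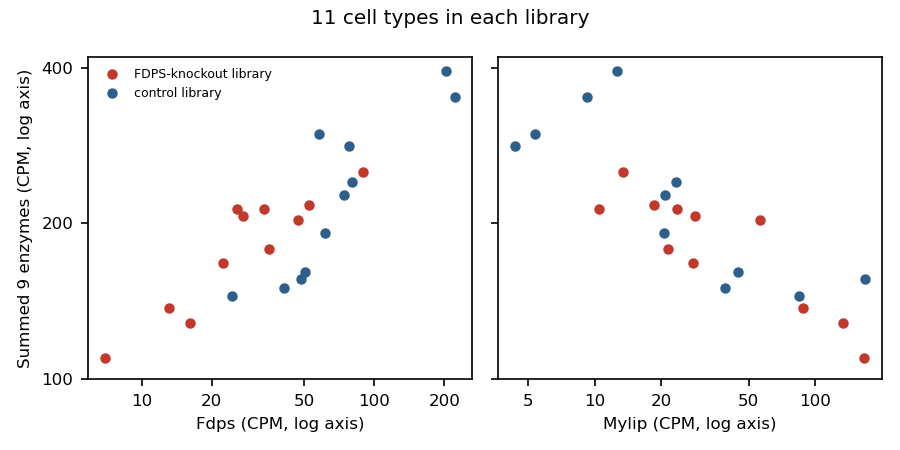
Summed CPM of the 9 genes against Fdps and Mylip in 11 cell types of each library, both axes logarithmic; each point is 1 cell type in 1 library. The sum is higher where Fdps is higher (r = 0.87) and lower where Mylip is higher (r = -0.85).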

How the data were processed

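The deposited values were UMI counts per gene and cell barcode, which per the file headers came from Cell Ranger 7.2.0, as run by the authors. Their build was mm10 per the submitters' processing notes, and no source used here names the annotation. Cells with at least 200 genes and under 10% mitochondrial UMIs were kept. Scrublet (scanpy 1.11.5) scored doublets, and the top 0.8% per 1000 barcodes were removed (635 and 820 cells).

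Cells were typed by at least 3 markers of a set, each present above 20% of its level in the whole library. This gate was set after marker detection was seen. Regulatory T cells needed no Cd4 UMI, unlike the marker list, because asking for it left 65 control cells. The 9 genes and other lists were chosen with earlier results of these data known.

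UMIs were summed per type and library. Intervals are exact (Poisson for levels, conditional binomial for ratios, Clopper-Pearson for shares). UMIs were not adjusted for free RNA. Its share was estimated from C1qa, C1qb and C1qc in lymphocytes, genes the gate also limits, after a first choice (Pf4, C3ar1, Selenop, Ccl8, Ccl7) gave 30.0% in regulatory T cells of the knockout library, against 2.71%. Named were all 9 members, list genes past 1.5-fold and the 5 genes most alike, except some that are not reported here. The ratio code was tested on simulated data.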

Additional observations from a re-analysis of the deposited data

Results flagged for a closer look

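Cyp51 and Sc5d went in opposite directions in different cell types, with both counting intervals clear of 1. Cyp51 had a ratio of 2.44 in other phagocytes and 0.41 in other T cells. Sc5d had a ratio of 2.44 in macrophages and 0.23 in B cells, the last on 8 and 27 UMIs. Neither difference between cell types was tested, because each group is 1 library. With cell types from clusters in place of the gate, Cyp51 gave 2.11 in other phagocytes and 0.91 (0.47 to 1.95) in other T cells, so the low value in other T cells rests on the gate. Sc5d gave 2.95 in macrophages and 0.32 in B cells.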

How the results depend on the processing

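No paired analysis was possible because each group has 1 library. Of 54 alternatives to the log2 ratio of the summed 9 genes, in CD8 T cells, NK cells, regulatory T cells, monocytes with macrophages, and conventional dendritic cells, 41 stayed within the counting interval, 12 left it and 1 turned. In CD8 T cells (-0.45) the value was -0.41 with a stricter gate, -0.41 with Leiden clusters, -0.70 in non-dividing cells, -0.60 scaled by the median gene and -0.67 after thinning. NK cells (-0.17, with an interval that held 0) gave -0.22 both from clusters and without doublet removal, with intervals below 0, and -0.40 after thinning and -0.43 with free RNA subtracted by the first choice of genes, an alternative added after seeing the data. Monocytes with macrophages (0.12) gave 0.039 with a stricter gate, 0.22 centred on genes of like span and -0.039 in non-dividing cells, so their direction is not settled. Conventional dendritic cells (-0.47) gave -0.39 with a stricter gate, -0.28 in non-dividing cells and -0.58 scaled by the median gene. Of 15 alternatives to the count of lower members, 4 changed it by over 1.5 times: 0 in CD8 T cells, 0 in NK cells and 1 in regulatory T cells at a pseudocount of 20 CPM, and 2 in NK cells at 1 CPM; CD8 T cells had 3 at 1 CPM, against 2. Asking for a Cd4 UMI, also added after seeing the data, gave -0.47 in regulatory T cells. The cause of each shift was not tested. Depth limits B cells, where Sc5d rests on 8 and 27 UMIs.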
